A study of Mus musculus with 20 samples.

Results

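A set of 10 genes of the BAF chromatin remodelling complex were followed through neuronal development in mouse brain tissue, and all of them were found among the 34620 gene symbols of the count tables. They were chosen by name. Actl6a, Phf10, Dpf2 and Ss18 are subunits known from the complex of neural progenitors. Actl6b, Dpf1, Dpf3 and Ss18l1 are their counterparts in the complex of neurons. Smarca2 and Smarca4 are its alternative ATPases. All 10 passed the filter on low counts.

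The series holds 20 samples, of which 6 are polyA RNA libraries with gene counts; the other 14, made by bisulfite sequencing, were not used here. The RNA came from microdissected frozen brain of wild-type C57BL/6 mice labelled male, with no age given. The groups were dorsal medium spiny neurons of the striatum (dMSN, 2 libraries), young medium spiny neurons (yMSN), young pyramidal neurons of the hippocampal CA fields (yCA), striatal precursors (SP) and hippocampal precursors (HP), with 1 library each; the labels write "medial" for medium. Tissue was dissected and not sorted, so each library holds every cell type of the piece taken. No source says that the dMSN libraries come from separate animals. The p-values of the dMSN comparisons therefore rest on the spread between these 2 libraries, which may be technical. Each gene's spread was moderated toward that of all genes, so it is not that gene's spread alone. In the other comparisons the spread comes from the dMSN pair and from how far the step from precursor to young differs between the lineages.

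BAF complexes use the energy of ATP to slide or evict nucleosomes and so open or close regulatory DNA. Each complex is built around Smarca4 (BRG1) or Smarca2 (BRM), and several other positions are filled by alternative family members. When mouse neural progenitors leave the cell cycle, the actin-like subunit Actl6a (BAF53a) is replaced by Actl6b (BAF53b), the PHD finger subunits Phf10 (BAF45a) and Dpf2 (BAF45d) by Dpf1 (BAF45b) and Dpf3 (BAF45c), and Ss18 by Ss18l1 (CREST). The neuronal form is known for its part in dendrite growth and activity-dependent transcription.

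Library depth and markers set the frame for all values. Counts assigned to genes ranged from 31282185 to 36969136 in the 4 precursor and young libraries, and were 152347673 and 145713678 in dMSN. Levels below are CPM, counts scaled to library size by TMM (trimmed mean of M values). They follow 1 gene across libraries and do not rank genes, because they are not divided by gene length. The 9 genes of cycling cells summed to 18.9 and 21.5 CPM in dMSN, 786 (yCA) and 903 CPM (yMSN) in young tissue, and 3464 (HP) and 3495 CPM (SP) in precursors. The 8 neuron markers summed to 9329 and 11309 CPM in dMSN, 4016 (yCA) and 2567 CPM (yMSN) in young tissue, and 660 (HP) and 1180.5 CPM (SP) in precursors. Map2 (247 and 347 CPM against 850 CPM) and Tubb3 (918 and 855 CPM against 1097 CPM) were lower in dMSN than in yMSN. The other 6 were higher, with Snap25 alone at 3272 and 4801 CPM in dMSN. The 6 neural stem cell genes summed to 2157 (HP) and 3142 CPM (SP), against 1322 (yCA) and 1376 CPM (yMSN). In dMSN they summed to 224 and 207 CPM. Their medians overlapped between precursors and young tissue, at 128 (HP) and 198 CPM (SP) against 214 (yCA) and 161 CPM (yMSN). The 8 medium spiny neuron markers had medians of 409 and 333 CPM in dMSN and 14.0 CPM in yMSN, the last no higher than the 14.2 CPM of yCA. The young libraries also held skeletal muscle transcripts: the sum over 10 genes was 6235 (yCA) and 2319 CPM (yMSN), against 13.6 (HP) and 13.3 CPM (SP). In each dMSN library 1 of the 10 muscle genes was at 0, and in the others none was. In dMSN the 5 oligodendrocyte markers summed to 7439 and 6368 CPM, against 71.2 CPM in yMSN. The 5 microglia markers summed to 512 and 451 CPM in dMSN, against 81.7 CPM in yMSN, and the 5 astrocyte markers to 831 and 832 CPM, against 373 CPM. The astrocyte median was 40.1 (yCA) and 42.3 CPM (yMSN) in young tissue, against 3.27 (HP) and 4.03 CPM (SP) in precursors. The astrocyte sums overlapped between these stages, at 268 (yCA) and 373 CPM (yMSN) against 295 (HP) and 210 CPM (SP). Of these markers Gja1 was lower in young tissue, at 60.9 (yCA) and 156 CPM (yMSN) against 251 (HP) and 167 CPM (SP). Xist, the X-inactivation RNA of female cells, stood at 489 to 1087 CPM in the 4 young and precursor libraries although all are labelled male. In dMSN it was at 0.0332 and 0 CPM. Y-linked reads numbered 8258 and 9348 in dMSN, 2108 in yMSN and 672 in HP, with 0 in SP and yCA. The dMSN libraries therefore differed from yMSN and SP in sex-linked reads as well as in stage, and these cannot be told apart here. The part that these markers play in the results was not tested. In bulk tissue, more cells of a type and more RNA per cell cannot be told apart.

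In young tissue the subunits of the neuronal complex were higher than in precursors, and those of the progenitor complex were lower. This held in both the hippocampal and the striatal lineage, but Dpf3 rose little in the striatal one (log2 ratio 0.26, yMSN over SP). Against precursors, 3 of 4 neuronal subunits and Smarca2 rose, and 4 of 4 progenitor subunits fell. The background was 21.7% of 19192 genes tested called higher and 13.7% called lower (edgeR quasi-likelihood test with lineage and stage as terms, Benjamini-Hochberg adjusted p below 0.05). Of the genes called, 61.3% were higher; with RLE scaling that share was 52.4% and with DESeq2 51.2%, and no member changed direction under either. The median log2 change was 1.80 for the 4 neuronal subunits and -0.91 for the 4 progenitor subunits, beside 0.10 for all genes. Dpf3 and Smarca4 did not pass. The young and precursor libraries did not overlap for any of the 10 members, but that was also true of 73.6% of all genes.

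**Figure D1:**
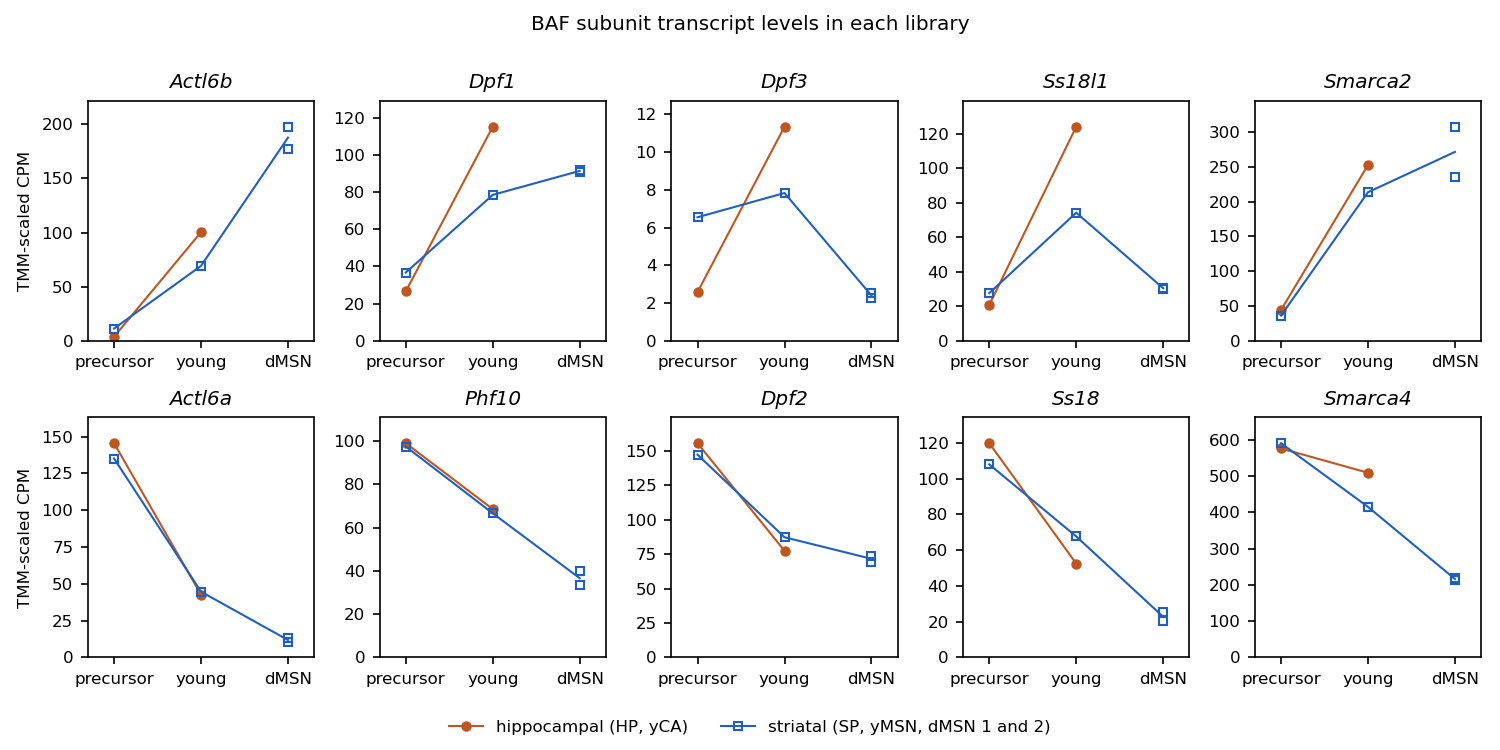
TMM-scaled CPM (vertical axes, linear, from 0) of the 10 subunits in each library, by stage; circles are the hippocampal libraries, open squares the striatal ones, and the striatal line ends at the mean of the 2 dMSN libraries. The upper row shows the neuronal subunits and Smarca2, the lower row the progenitor subunits and Smarca4; Actl6b reached 198 and 178 CPM in dMSN, while Ss18l1 and Dpf3 were highest in the young libraries.

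In dMSN against yMSN, the neuronal subunits went separate ways while most progenitor subunits fell further. Actl6b rose, Dpf1 did not pass, and Ss18l1 and Dpf3 fell. Of the 4 progenitor subunits 3 fell and Dpf2 did not pass. Of the ATPases Smarca4 fell and Smarca2 did not pass. For all genes, 32.1% were called higher and 35.4% lower in this comparison (edgeR, 1 mean per cell group), so calls alone say little here. Over the whole striatal course, dMSN against SP, Actl6b, Dpf1 and Smarca2 rose, and Dpf3, Smarca4 and 4 of 4 progenitor subunits fell, beside 39.1% and 33.1% of all genes. Both comparisons take their spread from the dMSN pair alone and share those libraries. The 7 members called between dMSN and yMSN stand beside 67.5% of all genes called in either direction. With lineage and stage as terms instead, 6 members were called with both dMSN libraries, Actl6b being the one lost. In that model 2 members were called without dMSN 1 and 3 without dMSN 2. Dpf3, Ss18l1 and Smarca4 then lost their calls in both cases and Phf10 without dMSN 1, while the log2 changes of Dpf3 (-2.33 and -2.15, against -2.23 with both libraries), Ss18l1 (-1.59 and -1.60, against -1.59) and Smarca4 (-1.04 and -1.01, against -1.03) moved little.

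**Figure D2:**
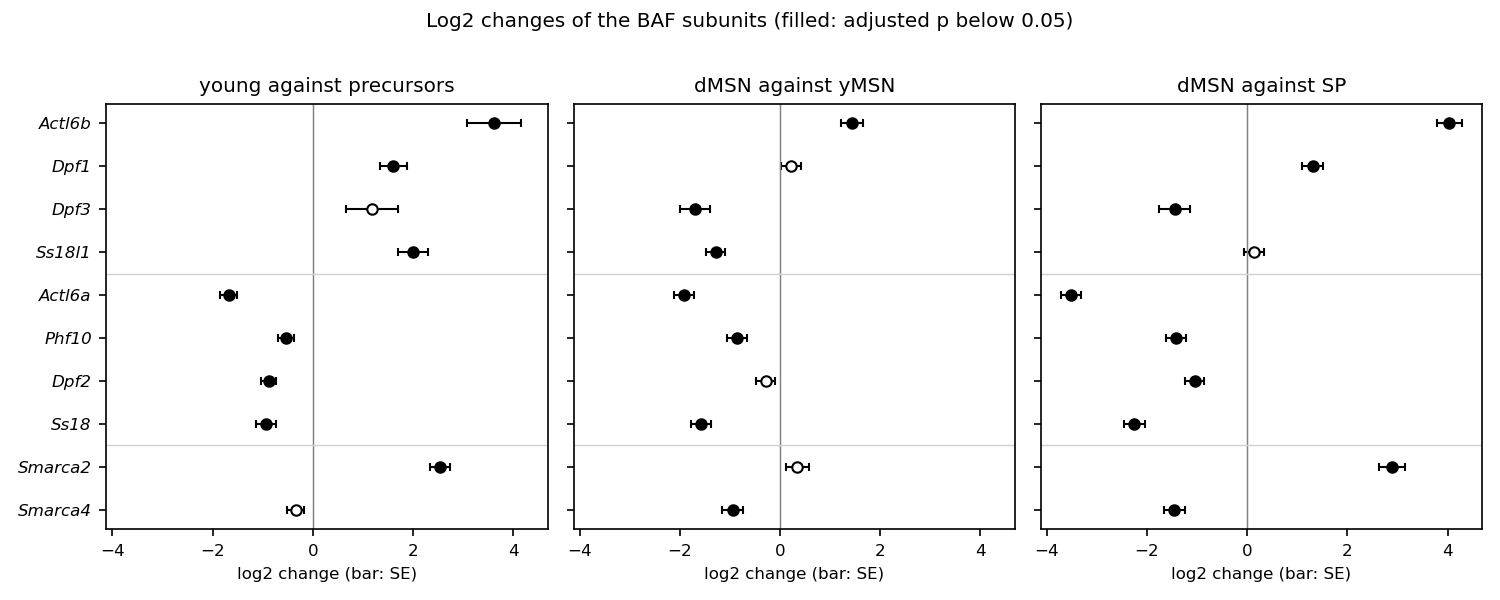
Log2 change with its SE (horizontal axes) of each subunit in young against precursors, dMSN against yMSN and dMSN against SP; filled points have an adjusted p below 0.05 in edgeR. Neuronal subunits are at the top, progenitor subunits in the middle and the ATPases at the bottom; Actl6b lies to the right in all 3 panels and Actl6a to the left.

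The actin-like subunit showed the largest shift in paralogue ratio of the pairs compared. Actl6b, which neurons need for dendrite outgrowth, stood at 100.4 (yCA) and 69.3 CPM (yMSN), against 3.85 (HP) and 11.4 CPM (SP). It reached 198 and 178 CPM in dMSN. It was low in both precursors, intermediate in both young libraries and highest in both dMSN libraries. In young tissue it rose by 3.61 log2 units (SE 0.533, adjusted p = 0.0072, edgeR), higher in 2 of 2 lineages. The single pairs of libraries, which have no test, gave log2 ratios of 4.71 in the hippocampus (yCA over HP; exact 95% interval 4.46 to 4.97, counting error only) and 2.60 in the striatum (yMSN over SP; 2.46 to 2.75). In dMSN it rose by a further 1.44 over yMSN (SE 0.212, adjusted p = 7.0e-05), and by 4.04 over SP (SE 0.250, adjusted p = 2.5e-08). The step over yMSN lost its call with lineage and stage as terms (log2 change 0.86, adjusted p = 0.24).

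Actl6a, its progenitor counterpart and also a subunit of other remodelling complexes, ran the opposite way. It stood at 42.6 (yCA) and 44.7 CPM (yMSN), against 146 (HP) and 135 CPM (SP), and at 10.7 and 12.9 CPM in dMSN. The 2 lineages nearly coincided at each stage. It fell by 1.68 log2 units in young tissue (SE 0.166, adjusted p = 0.0029), and it fell by 1.92 in dMSN against yMSN (SE 0.201, adjusted p = 3.9e-06; all edgeR). In dMSN against SP its log2 change was -3.52 (SE 0.203, adjusted p = 1.4e-08, edgeR). These 3 calls held under every alternative run.

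The promoters of this pair are shown because the 2 genes moved in opposite directions throughout. Each window runs from 250 bases before to 50 bases after the RefSeq gene start, in build GRCm38.p6 and 5′ to 3′ on the gene's strand, with each CpG in capitals, the site of DNA methylation. The Actl6b window is chr5:137553296-137553595 on the plus strand, and the Actl6a window is chr3:32708296-32708595 on the plus strand.
Actl6b: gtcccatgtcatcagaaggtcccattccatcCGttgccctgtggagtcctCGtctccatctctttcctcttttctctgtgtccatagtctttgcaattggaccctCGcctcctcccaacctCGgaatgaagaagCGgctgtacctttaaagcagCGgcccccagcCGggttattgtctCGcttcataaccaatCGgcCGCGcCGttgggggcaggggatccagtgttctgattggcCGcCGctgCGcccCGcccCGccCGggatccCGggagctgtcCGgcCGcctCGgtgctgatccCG
Actl6a: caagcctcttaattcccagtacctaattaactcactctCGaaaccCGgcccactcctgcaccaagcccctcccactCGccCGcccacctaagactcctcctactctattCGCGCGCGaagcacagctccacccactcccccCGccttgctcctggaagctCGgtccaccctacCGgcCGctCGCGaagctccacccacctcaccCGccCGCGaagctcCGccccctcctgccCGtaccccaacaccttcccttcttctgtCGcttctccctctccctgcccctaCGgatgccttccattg

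Both windows are rich in CpG. The Actl6b window holds 23 CpG and the Actl6a window 21, against a median of 7 over all 32851 windows of the RefSeq table and 13 over those of protein-coding genes. The observed over expected CpG ratio was 0.827 for Actl6b and 0.990 for Actl6a, against a median of 0.567 for protein-coding genes. High CpG content was therefore common to the gene that rose and the gene that fell.

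The PHD finger subunits, which read histone modifications, had smaller log2 changes in young tissue than their actin-like counterparts, a difference that was not tested. Phf10 stood at 68.6 (yCA) and 66.7 CPM (yMSN), against 99.1 (HP) and 97.6 CPM (SP), and at 33.4 and 39.9 CPM in dMSN. Its values stepped down by stage and were close between lineages. It fell by 0.54 log2 units in young tissue (SE 0.156, adjusted p = 0.047), by 0.86 in dMSN against yMSN (adjusted p = 0.0023) and by 1.41 in dMSN against SP (adjusted p = 3.7e-05, edgeR). The call in young tissue is marginal, and it was lost with neither dMSN library in the fit (log2 change -0.59). It was lost without HP, SP, yMSN, dMSN 1 or dMSN 2 (adjusted p = 0.0934 to 0.101), and without a filter on low counts (adjusted p = 0.0613).

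Dpf2, the other progenitor PHD finger subunit, stood at 77.4 (yCA) and 87.2 CPM (yMSN), against 155 (HP) and 147 CPM (SP). It was at 73.8 and 69.3 CPM in dMSN. The drop lay between precursors and young tissue. It fell by 0.88 log2 units there (SE 0.150, adjusted p = 0.011), while dMSN against yMSN did not pass (log2 change -0.29, SE 0.194, adjusted p = 0.21, edgeR). Against SP it fell by 1.04 in dMSN (adjusted p = 3.2e-04).

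Dpf1, which is largely restricted to neurons, stood at 115 (yCA) and 78.5 CPM (yMSN), against 26.6 (HP) and 36.7 CPM (SP). It was at 90.8 and 91.9 CPM in dMSN, between the young libraries. It rose by 1.60 log2 units in young tissue (SE 0.267, adjusted p = 0.0100) and by 1.31 in dMSN against SP (SE 0.208, adjusted p = 1.0e-04, edgeR). Its value in dMSN against yMSN was a log2 change of 0.22 (SE 0.197, adjusted p = 0.34), and of -0.05 with lineage and stage as terms.

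Dpf3, known in zebrafish and mouse from heart and skeletal muscle as well as neurons, did not pass in young tissue as fitted here. It stood at 11.3 (yCA) and 7.83 CPM (yMSN), against 2.58 (HP) and 6.54 CPM (SP). In dMSN it was at 2.55 and 2.25 CPM, level with HP. Raw counts were 441 in yCA, 340 in yMSN, 90 in HP, 260 in SP, and 307 and 261 in dMSN. The change in young tissue did not pass (log2 change 1.18, SE 0.515, adjusted p = 0.13, edgeR). The log2 ratio was 2.13 (exact 95% interval 1.80 to 2.48) in the hippocampal pair and 0.26 (0.02 to 0.50) in the striatal pair, and the test passed without SP (log2 change 2.13, adjusted p = 8.1e-04) or without yMSN (2.13, adjusted p = 7.0e-04). It also passed with all libraries under 1 mean per cell group (1.20, adjusted p = 0.0021). The skeletal muscle genes were also higher in yCA than in yMSN; their part in the Dpf3 values was not tested. In dMSN those genes summed to 96.4 and 95.8 CPM, most of it Actn2 (58.1 and 52.8 CPM) and Acta1 (28.2 and 28.4 CPM). Their median there was 1.16 and 1.01 CPM, against 1.21 (HP) and 1.43 CPM (SP). Dpf3 fell in dMSN by 1.70 against yMSN (SE 0.299, adjusted p = 2.8e-04) and by 1.45 against SP (SE 0.302, adjusted p = 9.0e-04). The fall against SP lost its call with lineage and stage as terms (log2 change -1.05, adjusted p = 0.13).

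Ss18l1 rose in young tissue and fell again in dMSN. This calcium-responsive coactivator stood at 124 (yCA) and 74.3 CPM (yMSN), against 20.9 (HP) and 27.7 CPM (SP). In dMSN it was at 30.4 and 30.7 CPM, close to SP. It rose by 2.00 log2 units in young tissue (SE 0.298, adjusted p = 0.0075) and fell by 1.28 in dMSN against yMSN (SE 0.193, adjusted p = 8.2e-05, edgeR). In dMSN against SP the log2 change was 0.14 (SE 0.203, adjusted p = 0.55). A call up in young tissue followed by a call down in dMSN was seen for 6.52% of all genes.

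Ss18, the progenitor counterpart, fell at both steps. It stood at 52.5 (yCA) and 67.7 CPM (yMSN), against 120 (HP) and 108 CPM (SP), and at 20.1 and 25.3 CPM in dMSN. It fell by 0.93 log2 units in young tissue (SE 0.205, adjusted p = 0.022), by 1.58 in dMSN against yMSN (SE 0.206, adjusted p = 2.5e-05) and by 2.25 in dMSN against SP (adjusted p = 7.5e-07, edgeR). The call in young tissue was lost without HP (adjusted p = 0.0507), dMSN 1 (0.0557) or dMSN 2 (0.0558).

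The ATPases passed the test at different steps. Smarca2 stood at 253 (yCA) and 213 CPM (yMSN), against 44.3 (HP) and 36.4 CPM (SP). It was at 235 and 308 CPM in dMSN, around the young libraries. It rose by 2.53 log2 units in young tissue (SE 0.198, adjusted p = 0.0020), with log2 ratios of 2.51 in the hippocampal pair and 2.55 in the striatal pair. In dMSN against yMSN the log2 change was 0.35 (SE 0.225, adjusted p = 0.19), and against SP it rose by 2.90 (SE 0.260, adjusted p = 6.6e-07, edgeR).

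Smarca4, the ATPase that progenitors depend on, stood at 509 (yCA) and 415 CPM (yMSN), against 576 (HP) and 590 CPM (SP). It was at 218 and 214 CPM in dMSN. The young value did not pass (log2 change -0.34, SE 0.174, adjusted p = 0.18). It fell by 0.94 in dMSN against yMSN (SE 0.207, adjusted p = 0.0015) and by 1.45 against SP (SE 0.205, adjusted p = 3.8e-05, edgeR). The Smarca2 change thus lay between precursors and young tissue, and the called Smarca4 change between yMSN and dMSN; whether the 2 genes' changes differ at either step was not tested.

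The ATPase promoters are given because Smarca2 rose and Smarca4 fell in dMSN against SP, again with each CpG in capitals. The Smarca2 window is chr19:26604910-26605209 and the Smarca4 window is chr9:21615919-21616218, both on the plus strand of GRCm38.p6.
Smarca2: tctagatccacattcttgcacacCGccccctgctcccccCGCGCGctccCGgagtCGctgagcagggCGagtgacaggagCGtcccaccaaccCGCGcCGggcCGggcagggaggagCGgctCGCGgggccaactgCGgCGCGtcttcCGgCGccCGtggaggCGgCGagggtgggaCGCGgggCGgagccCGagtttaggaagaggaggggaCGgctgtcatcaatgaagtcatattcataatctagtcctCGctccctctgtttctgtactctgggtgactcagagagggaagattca
Smarca4: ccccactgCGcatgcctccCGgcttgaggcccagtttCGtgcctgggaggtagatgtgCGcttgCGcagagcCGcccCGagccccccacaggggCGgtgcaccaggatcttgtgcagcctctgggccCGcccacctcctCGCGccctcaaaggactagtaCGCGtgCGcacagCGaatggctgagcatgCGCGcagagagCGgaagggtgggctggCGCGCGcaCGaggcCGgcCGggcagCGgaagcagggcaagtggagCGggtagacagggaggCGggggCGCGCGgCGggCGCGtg

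The Smarca2 window holds 29 CpG and the Smarca4 window 33. Of the 10 members 9 had a window in the RefSeq table, and these held 17 (Dpf3) to 62 (Phf10) CpG. CCAAT, searched on both strands, occurs in 37.4% of all windows; it was in the windows of Actl6b (3 matches), Dpf3 (3) and Dpf1 (2) but not of Ss18l1, nor of Smarca2 and Smarca4, and among the 3 progenitor windows in that of Dpf2 alone (1 match). That is 4 of 9 windows, near the share of all windows and the 38.2% of protein-coding ones. GGGCGG, which contains a CpG and occurs in 35.7% of all windows and 46.2% of protein-coding ones, was found on either strand in 8 of the 9, all but Dpf2. GGACAGC, part of the sequence that the repressor REST binds, occurs in 6.56% of all windows and was found once, in Actl6b. These matches describe letters and not binding.

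The ratio of paralogues within a library does not depend on how libraries are scaled, and gene length cancels when it is compared between libraries. The log2 ratio of Actl6b to Actl6a counts was 1.24 (exact 95% interval 1.15 to 1.32) in yCA and 0.63 (0.55 to 0.72) in yMSN, against -5.24 (-5.50 to -4.99) in HP and -3.56 (-3.71 to -3.43) in SP. It was 4.20 and 3.78 in dMSN. The ratio was 89.1-fold higher in yCA than in HP, 18.3-fold higher in yMSN than in SP, and 188-fold higher in dMSN (mean log2) than in SP. The intervals cover counting error only, and the dMSN pair differed by 0.42 on this scale.

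The other pairs shifted by less. Ss18l1 to Ss18 was 13.6-fold higher in yCA than in HP and 4.28-fold higher in yMSN than in SP. It moved little after that: the log2 ratio was 0.59 and 0.28 in dMSN and 0.13 in yMSN, and both genes were lower in dMSN. Dpf1 to Dpf2 was 8.68-fold higher in yCA than in HP and 3.60-fold higher in yMSN than in SP, and Dpf1 to Phf10 was 6.24-fold and 3.13-fold higher in these comparisons. Dpf3 to Dpf2 was 8.81-fold higher in yCA than in HP and 2.02-fold higher in yMSN than in SP, but 1.33-fold lower in dMSN than in SP. Smarca2 to Smarca4 was 6.45-fold higher in yCA than in HP, 8.35-fold higher in yMSN than in SP and 20.2-fold higher in dMSN than in SP.

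**Figure D3:**
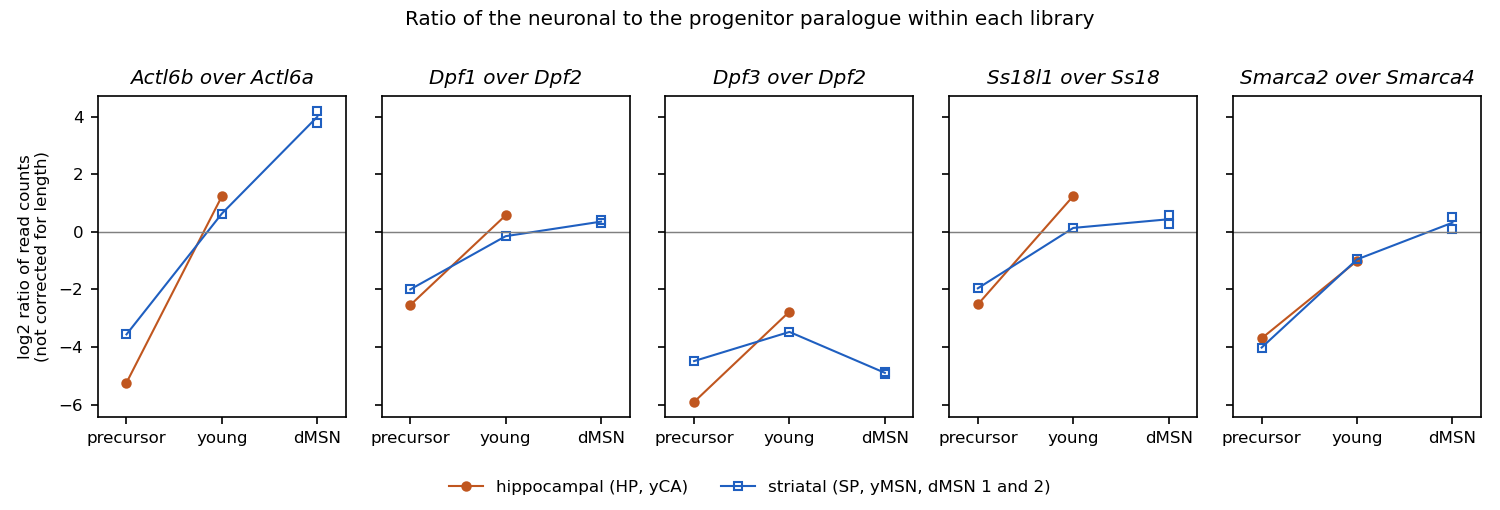
Log2 ratio of read counts of 2 paralogues (vertical axis, not corrected for gene length) in each library, by stage; circles are hippocampal and open squares striatal libraries. Actl6b over Actl6a runs from -5.24 in HP to 4.20 in dMSN 1, and Dpf3 over Dpf2 is lower in dMSN than in yMSN.

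Between lineages, 0 of 10 members passed in the contrast of striatal with hippocampal libraries over both stages, as did 0 of 19192 genes (0%; edgeR, lineage and stage as terms). At an unadjusted p below 0.05 there were 826 genes (4.30%) and no member, and DESeq2 called 60 genes and no member. Log2 differences ran from -0.26 for Smarca2 to 0.45 for Actl6b (SE 0.499). For the progenitor subunits the log2 ratios ran from -0.15 to -0.02 in SP over HP and from -0.04 to 0.37 in yMSN over yCA.

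The neuronal subunits had opposite differences at the 2 stages. All 4 were higher in SP than in HP, with log2 ratios of 1.57 for Actl6b, 1.34 for Dpf3, 0.46 for Dpf1 and 0.41 for Ss18l1. All 4 were lower in yMSN than in yCA, with log2 ratios of -0.54, -0.53, -0.55 and -0.74 in the same order. Over all genes, 28.5% were higher in SP than in HP and lower in yMSN than in yCA. Opposite signs in either direction, with both counting intervals clear of 0, were seen for 7 of the 10 members and for 22.1% of all genes, a rule that genes with more counts meet more easily. The summed neuron markers ran the same way, at 1180.5 CPM in SP against 660 CPM in HP and at 2567 CPM in yMSN against 4016 CPM in yCA; their part in the result was not tested. These are single libraries and have no test.

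The rest of the BAF complex was compared from a list of 21 other subunits, of which 20 were in the tables and tested. In young tissue 3 rose, 6 fell and 11 did not pass, beside 21.7% of all genes called higher and 13.7% called lower. Their median log2 change was 0.00. The 3 that rose were Bcl11b and Bcl11a, zinc finger subunits known from cortical and striatal projection neurons, and Smarcd3. Bcl11b stood at 361 (yCA) and 296 CPM (yMSN), against 47.9 (HP) and 27.0 CPM (SP), and rose by 3.18 log2 units (SE 0.209, adjusted p = 0.0015, edgeR). Smarcd3 (BAF60c), also known from heart and skeletal muscle, rose by 1.15 (adjusted p = 0.0075); it stood at 59.2 (yCA) and 37.2 CPM (yMSN), against 23.0 (HP) and 19.6 CPM (SP). In dMSN it was at 90.5 and 86.0 CPM. The part of the skeletal muscle genes in the Smarcd3 values was not tested. The 6 that fell were the core subunits Smarcc1 and Smarce1, the DNA-binding subunits Arid1a and Arid2, and Pbrm1 and Brd7 of the PBAF form.

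Smarcc1 (BAF155), a scaffold known to be abundant in neural progenitors, ran like Actl6a. It stood at 252 (yCA) and 224 CPM (yMSN), against 528 (HP) and 491 CPM (SP), and at 58.6 and 65.5 CPM in dMSN. It fell by 1.10 log2 units in young tissue (SE 0.160, adjusted p = 0.0069) and by 1.85 in dMSN against yMSN (adjusted p = 5.4e-06). Its partner scaffold Smarcc2 (BAF170) stood at 471 (yCA) and 352 CPM (yMSN), against 236 (HP) and 274 CPM (SP), and did not pass (log2 change 0.68, SE 0.214, adjusted p = 0.060). In dMSN Smarcc2 was at 313 and 279 CPM.

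In dMSN against SP, 5 of the 20 other subunits rose, 11 fell and 4 did not pass, beside 39.1% of all genes called higher and 33.1% called lower. Their median log2 change was -0.63, and that of all genes 0.20. Pbrm1 had the largest fall, by 3.35 log2 units (adjusted p = 1.8e-08, edgeR), followed by Smarcc1 (log2 change -2.99, adjusted p = 5.6e-08) and Arid2 (-2.98, adjusted p = 5.2e-08). Bcl7b rose by 2.38 (adjusted p = 1.3e-06), Smarcd3 by 2.17, Bcl11b by 2.09, Bcl11a by 1.44 and Actb, the actin of the complex and of the cytoskeleton, by 0.94. Bcl11b was highest in the young libraries and fell by 1.37 in dMSN against yMSN (adjusted p = 5.6e-05, edgeR).

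**Figure D4:**
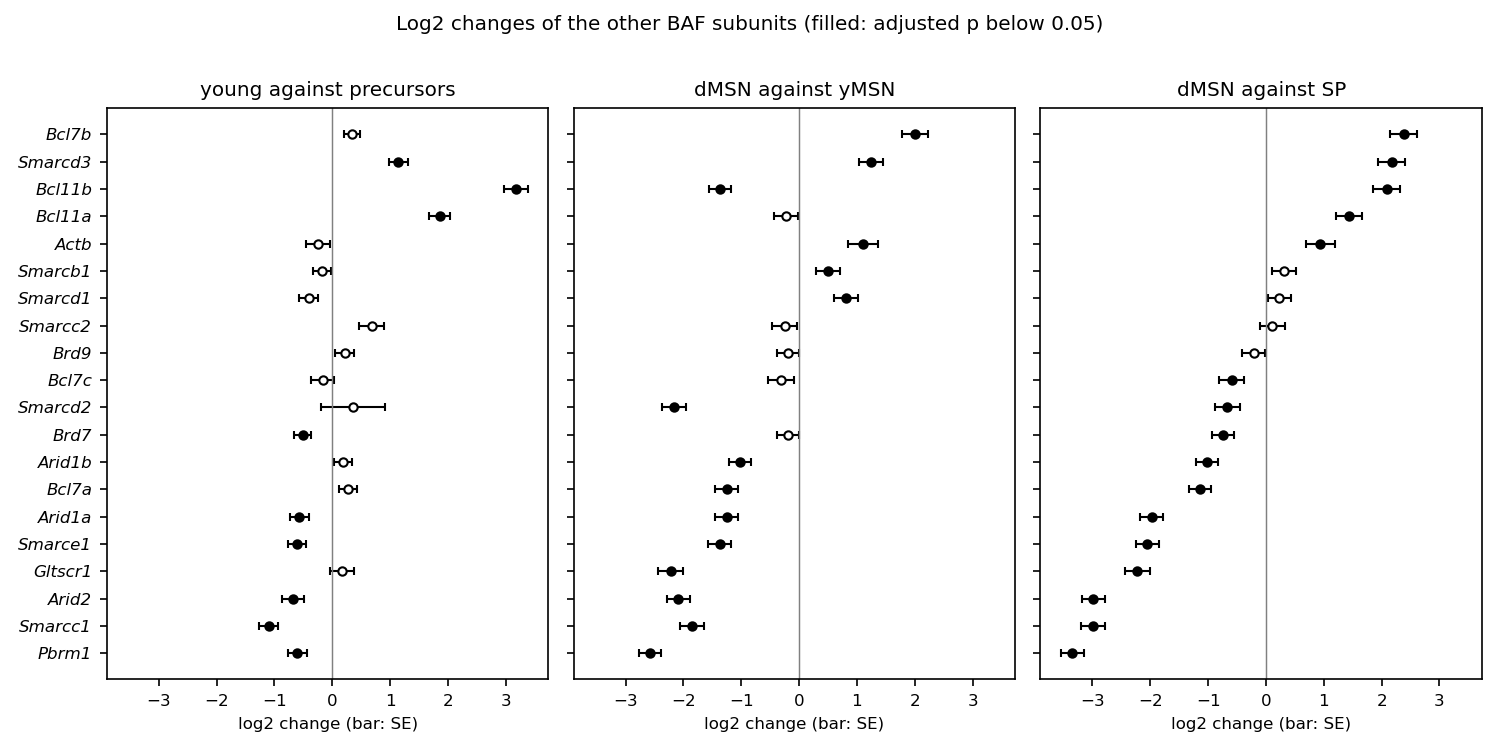
Log2 change with its SE (horizontal axes) of the 20 other BAF subunits in young against precursors, dMSN against yMSN and dMSN against SP, ordered by the last; filled points have an adjusted p below 0.05 in edgeR. Pbrm1 is lowest in dMSN against SP and Bcl7b highest.

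Among genes with at least 5 CPM on average, those whose levels most resembled Actl6a over the 6 libraries were Usp1, Ccne2, Mlf1ip, Kpnb1 and Chd1. Likeness was the root mean square difference of centred log2 CPM, from 0.0878 for Usp1 to 0.125 for Chd1. The gene most like Actl6b was Bean1, at 0.107. Among the members themselves the nearest pair was Phf10 and Smarca4, at 0.145.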

How the data were processed

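PolyA RNA libraries were prepared with the Illumina TruSeq RNA kit, per the labels' protocols. The authors deposited raw counts of reads, in 1 table per library with gene symbols as rows. The submitters' processing notes name TopHat2 2.0.2, TopHat, Bowtie 1.0.0, HTSeq, edgeR, Bismark and methylKit and the builds mm9 and NCBIM37, with no roles; the strand setting is not given in the sources used here. The 5 summary lines of each table were left out (no feature 5.34% to 9.81%, ambiguous 1.38% to 2.01%, not uniquely aligned 17.3% to 27.3% of reads).

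Counts were fitted in R 4.3.3 with edgeR 4.0.16: TMM scaling, filterByExpr by cell group (19192 genes), quasi-likelihood F test, Benjamini-Hochberg adjustment at 0.05. SE is the log2 change over the square root of F. Young against precursors and striatal against hippocampal used lineage and stage (2 residual degrees of freedom). The dMSN comparisons used 1 mean per cell group (1 degree), with the spread from dMSN alone before it was moderated across genes. The dMSN libraries differed beyond counting noise (mean chi-square per gene 181) and were kept as 2 samples. Single pairs have exact binomial 95% intervals for counting error only. Alternatives used DESeq2 1.42.0, limma 3.58.1, other scalings, filters and models, and each library left out. The code was checked on simulated counts with 200 genes changed, a simpler setting than these data, so this does not test the calls.

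The members and gene lists were chosen with earlier results of these data known. All members and the other BAF subunits could be named, and up to 4 genes of each other list. Map2 was found under its older symbol, and 1 listed BAF subunit was not matched. Promoter sequences are from RefSeq, GRCm38.p6. The other genes with levels most like Actl6b are not reported here.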

Additional observations from a re-analysis of the deposited data

Results flagged for a closer look

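For 7 members the striatal minus hippocampal difference had one sign between SP and HP and the opposite sign between yMSN and yCA, with both counting intervals clear of 0, as for 22.1% of all genes. The difference between the stages was not tested, since each library is single. For the 4 neuronal subunits and Smarca4 the striatal library was the higher one among precursors and the lower one in young tissue. The log2 ratios of SP over HP and of yMSN over yCA were 1.57 and -0.54 for Actl6b, 0.46 and -0.55 for Dpf1, 1.34 and -0.53 for Dpf3, and 0.41 and -0.74 for Ss18l1. Smarca4 had 0.036 and -0.29. Dpf2 and Ss18 ran the other way, with -0.079 and 0.17 for Dpf2 and -0.15 and 0.37 for Ss18. Y-linked counts also divided these libraries: summed over 3 Y-linked genes (Ddx3y, Eif2s3y, Kdm5d), SP had 0 reads and HP 672, while yMSN had 2108 and yCA 0. Xist did not divide them, at 857 (HP), 1087 (SP), 762 (yCA) and 489 CPM (yMSN). The part of the Y-linked and Xist counts in the ratios above was not tested.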

How the results depend on the processing

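Under all settings run, 6 to 9 members were called in young against precursors (8 as reported), 2 to 7 in dMSN against yMSN (7) and 8 to 9 in dMSN against SP (9). In young against precursors 6798 genes were called, 4468 without either dMSN library and 3614 to 7334 with 1 library left out. In dMSN against yMSN 12948 genes were called. With lineage and stage as terms that was 11504 genes and 6 members, Actl6b being lost (adjusted p = 0.24). With the same terms and fewer libraries it was 6614 genes and 2 members (without dMSN 1) or 7048 genes and 3 members (without dMSN 2). Dpf3, Ss18l1 and Smarca4 then lost their calls in both, with log2 changes at least as large as reported. In the same 3 fits of that model (both dMSN libraries, without dMSN 1, without dMSN 2) the Dpf1 change, never called, was -0.054, -0.047 and -0.064, against 0.22 as reported.

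In striatal against hippocampal, with 0 genes called, DESeq2 called 60 and 1 mean per cell group 356, and leaving out 1 library gave 0 to 1574 genes and 0 to 1 member. That member was Actl6b, with a log2 difference of 1.57 without yCA (adjusted p = 0.012) or without yMSN (adjusted p = 0.017), since precursors alone then carry the lineage term. The uncalled values changed sign for Actl6b with voom (-0.10) and for Dpf2 with RLE scaling (-0.0061), no filter (-0.0066), DESeq2 (-0.0062) and without either dMSN library (-0.0069). With 1 library left out the difference ranged from -0.11 to 0.067 for Actl6a, -0.079 to 0.17 for Dpf2, -0.15 to 0.37 for Ss18, -0.54 to 1.57 for Actl6b, -0.55 to 0.46 for Dpf1, -0.53 to 1.34 for Dpf3, -0.74 to 0.41 for Ss18l1 and -0.29 to 0.037 for Smarca4. No paired analysis was possible because the groups compared share fewer than 2 replicate numbers. With 1 library per group outside dMSN, the spread behind every test rests on 1 or 2 residual degrees of freedom per gene. It was moderated across all genes. Dpf3, at 90 to 441 counts per library, has the widest counting error of the members.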

Other observations

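Other remodelling complexes were read from lists as for BAF. Of 17 genes of the ISWI and CHD families, 2 rose and 7 fell in young tissue against precursors (edgeR, adjusted p below 0.05; 21.7% and 13.7% of all genes), with a median log2 change of -0.52 beside 0.10 for all genes. Chd5, a CHD remodeller known from neurons, rose by 5.86 log2 units (adjusted p = 0.0011), and Chd7, which neural progenitors use, fell by 1.89 (adjusted p = 0.0035). In dMSN against yMSN 16 of the 17 fell and 0 rose, beside 35.4% and 32.1% of all genes; Chd5 was the exception (log2 change -0.14, adjusted p = 0.54).

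Actl6a also belongs to the INO80, SRCAP and TIP60 complexes. Of 28 other genes of those complexes, 1 rose and 9 fell in young tissue, beside 21.7% and 13.7% of all genes, with a median log2 change of -0.37. In dMSN against yMSN 11 rose and 11 fell, close to the shares of all genes (32.1% and 35.4%), with a median of 0.20, while Actl6a fell by 1.92. Mbtd1 had the largest fall there, by 3.23, and Znhit1 the largest rise, by 2.32 (edgeR).

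Rest, the repressor of neuronal genes, and Ptbp1, a splicing regulator of progenitors, fell with Actl6a. Rest stood at 27.8 (yCA) and 33.0 CPM (yMSN), against 91.5 (HP) and 70.8 CPM (SP), and at 3.23 and 3.43 CPM in dMSN. It fell by 1.41 log2 units in young tissue (SE 0.203, adjusted p = 0.0068) and Ptbp1 fell by 1.73 (SE 0.280, adjusted p = 0.0092, edgeR). Of the 4 genes in their list, 2 were called lower in young tissue and 0 higher, beside 13.7% and 21.7% of all genes. Rcor1 (log2 change 0.016, adjusted p = 0.97) and Ptbp2 (-0.54, adjusted p = 0.20, edgeR) did not pass.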
